A study of Mus musculus with 8 samples.

Results

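The spliceosomal Sm protein mRNAs are the 7 mRNAs Snrpb, Snrpd1, Snrpd2, Snrpd3, Snrpe, Snrpf and Snrpg. They were taken by gene name from a table that holds the poly(A) tail length of every nanopore read, and they accounted for 8722 of 1926118 mRNA reads (0.453%) and for 7 of 13120 genes with reads. The reads come from direct RNA sequencing of undifferentiated P19 cells, a wild-type mouse embryonal carcinoma line, in which each read is 1 RNA molecule and carries its own tail. Cells were exposed for 24 h or 48 h to 10 µM MHY1485 (MHY), a small molecule used to activate the mTOR pathway, or to the same amount of the solvent DMSO. There were 4 groups of 2 libraries each: DMSO 24 h (DMSO_21, DMSO_23), MHY 24 h (MHY_21, MHY_23), DMSO 48 h (DMSO_24, DMSO_25) and MHY 48 h (MHY_24, MHY_25). All groups are 1 cell line grown in serum, and the DMSO groups carry the solvent that the MHY groups also received.

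Sm proteins form a ring around a short uridine-rich stretch of the U1, U2, U4 and U5 small nuclear RNAs, and so make the core of the particles that remove introns from pre-mRNA. The ring is built in the cytoplasm by the SMN complex from preformed partners: SmB with SmD3 (Snrpb, Snrpd3), SmD1 with SmD2 (Snrpd1, Snrpd2), and SmE, SmF and SmG (Snrpe, Snrpf, Snrpg). Their mRNAs are short and are used in every cell. TOP mRNAs, which encode ribosomal proteins and elongation factors, start with a C and a run of pyrimidines and are translated under the control of mTOR. None of the 7 Sm genes is on the TOP list that accompanies the study (0 of 7), so their mRNAs give the values of small housekeeping mRNAs outside that class.

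The 8 libraries held 178369 to 316546 mRNA reads and 830 to 1475 Sm reads. The mean tail over all mRNA reads lay between 101 and 109 nt, lowest in MHY_24. In a list of 10 pluripotency genes, 9 had reads, with a summed level of 350.5 to 404 reads per 100000 mRNA reads, and Pou5f1 (Oct4) alone had 5098 reads. The summed level of 7 neuronal genes was 21.5 to 40.4, that of 4 endoderm genes at most 0.642 with Sox17 and Afp at 0, and that of 4 mesoderm and fibroblast genes 1.68 to 25.3, highest in DMSO_25 and MHY_25. Their part in the results below was not tested. Each sequencing run (3 runs at 24 h, 2 runs at 48 h) held both treatments.

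Most Sm reads ended at 1 place in each mRNA, and the bases before that place are shown because they carry the poly(A) signal that sets where the tail begins. All 7 members had the signal AATAAA within the last 30 bases before their most frequent read end, searched on the transcript strand. The same letters were present in that window in 69.1% of 2452 transcripts with at least 100 reads, and ATTAAA in 16.4%. The windows below leave out Snrpd1. They were read from the GENCODE vM21 transcripts of mm10 (the authors aligned to vM17 of the same build). All are in the 3′ UTR and are written 5′ to 3′ with the signal in capitals. They lie at chr2:130171644-130171673 on the minus strand (Snrpb), chr10:75535430-75535459 on the plus strand (Snrpd3), chr7:19152691-19152720 on the plus strand (Snrpd2), chr1:133603876-133603905 on the minus strand (Snrpe), chr10:93583393-93583422 on the minus strand (Snrpf) and chr6:86378874-86378903 on the plus strand (Snrpg).
Snrpb: gtttatAATAAActaagagactgttataca
Snrpd3: actgttaagctaAATAAAatttggttgttt
Snrpd2: cagtgggcgagaAATAAAaccctgtgcttt
Snrpe: AATAAAtgctgtaggaagtttttgttaaaa
Snrpf: cAATAAAgatttggggttcttttttttcaa
Snrpg: tttttactaAATAAActtttgtgatactca

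The signal ended 12 bases before the read end in Snrpd2 and Snrpd3 and 24 bases before it in Snrpe, the closest and the farthest of these mRNAs. At the other end, the first bases from the RefSeq start (GRCm38.p6) are shown for the 5 members that the RefSeq start table holds, because a TOP motif would have to begin there. The first base is in capitals.
Snrpd3: Gagagtcgggccggtcgttctctcg
Snrpd2: Aaggctggagcaacgcgcttggagg
Snrpe: Ttgcttccggaagtcgctttccgag
Snrpf: Gtcggccatttctcttagcgcgggt
Snrpg: Gctcactccttcgccgttgtgccga

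None of these 5 starts with C followed by 4 pyrimidines, a pattern found at 2.51% of 32851 RefSeq starts. The most frequent read start lay 11 to 42 nt downstream of the RefSeq start in Snrpd2, Snrpe, Snrpf and Snrpg, and 13 nt upstream of it in Snrpd3, so the reads do not place the first base exactly.

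The Sm mRNAs read here were short. The median aligned length was 376 nt for Snrpg, 421 nt for Snrpf, 445 nt for Snrpe, 476 nt for Snrpd2, 549 nt for Snrpd1, 633 nt for Snrpd3 and 1076 nt for Snrpb, against a median of 1245 nt over the 2452 transcripts. Most reads of a member were on 1 annotated transcript, with 831 to 1526 reads on it, and the 3′ UTR up to the read end measured 70 nt (Snrpd2) to 289 nt (Snrpb). The annotated 3′ end lay far past the read end in Snrpd3 (1922 nt), Snrpd2 (822 nt), Snrpg (425 nt), Snrpf (364 nt) and Snrpd1 (259 nt). Snrpe and Snrpb ended within 5 and 9 nt of it. A read end more than 100 nt short of the annotated end was found in 36.2% of the 2452 transcripts. Between 94.9% and 99.3% of the reads of 6 members ended within 25 nt of the most frequent end, but only 75.8% of the Snrpd1 reads did.

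**Figure D1:**
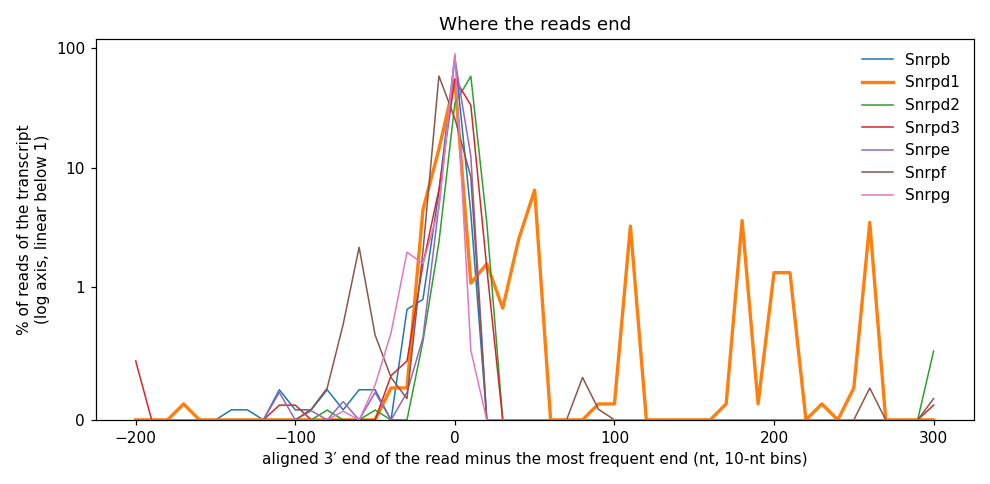
Aligned 3′ ends of the reads of each Sm mRNA, as the percent of the reads of its main transcript (vertical, logarithmic above 1%) by distance in nt from the most frequent end (horizontal, 10-nt bins, 8 libraries together). The outermost bins hold all ends beyond them. Snrpd1 (thick line) shows several further peaks downstream of the main one. In Snrpd2, Snrpd3, Snrpf and Snrpg at most 0.80% of reads end more than 25 nt downstream. In Snrpb and Snrpe the annotated transcript ends 9 and 5 nt past the main end, so no read could do so. Smaller shoulders lie upstream, as in Snrpf and Snrpg.

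By number of molecules the 7 mRNAs lay close to each other. Levels are given as reads per 100000 mRNA reads, a scale on which mRNAs of different length can be compared because 1 molecule gives 1 read. The mean over 8 libraries was 81.4 ± 11.8 (SD) for Snrpg, 76.9 ± 5.35 for Snrpe, 69.9 ± 5.48 for Snrpb, 69.6 ± 8.20 for Snrpd2, 64.6 ± 6.38 for Snrpf, 47.6 ± 6.73 for Snrpd3 and 44.2 ± 6.51 for Snrpd1. The highest and the lowest mean thus differed 1.84-fold, and the members ranked between 168 and 300 of 13120 genes by reads.
The one wide step in this order was between Snrpf and Snrpd3, 17.0 ± 9.23 reads per 100000, with Snrpf higher in 7 of 8 libraries. Snrpd2 exceeded Snrpf by 4.96 ± 4.64 in 7 of 8 libraries. The 4 other neighbouring pairs differed by less than the SD of their difference. Partners of 1 subcomplex were not matched: Snrpb was above Snrpd3, Snrpd2 above Snrpd1, and both Snrpe and Snrpg above Snrpf in 8 of 8 libraries.

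Tails of the Sm mRNAs were like those of most mRNAs. Over 8 libraries the pooled Sm reads had a mean tail of 107 nt and a median of 101 nt, with 10% of tails below 45.7 nt. Reads of 81 genes of the TOP list had a mean of 98.1 nt and a median of 91.2 nt, and all remaining mRNA reads had 109 nt and 102 nt. The pooled Sm mean was above the TOP mean and below the mean of the remaining mRNAs in each of the 8 libraries, which is a description and was not tested. Of 513 genes outside the spliceosome lists with at least 500 reads, the 5 whose tail distribution was nearest to the pooled Sm reads were Naca (a ribosome-associated chaperone subunit, 1-Wasserstein distance 0.995 nt), Tkt (transketolase, 1.48 nt), H3f3a (histone H3.3, 1.55 nt), Cox7a2 (a respiratory chain subunit, 1.77 nt) and Actg1 (gamma actin, 1.85 nt), against a median distance of 7.51 nt. This distance is the mean shift needed to turn one distribution into the other.

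**Figure D2:**
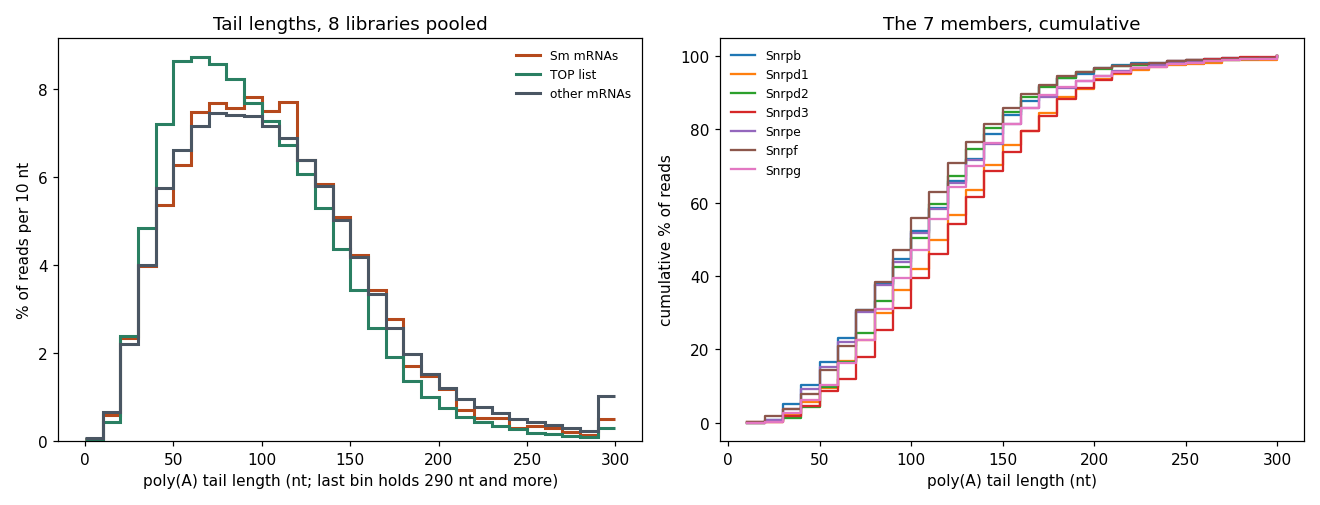
Left, poly(A) tail lengths of the pooled Sm mRNAs, the TOP list and all other mRNAs, as percent of reads per 10 nt over 8 libraries. Right, cumulative percent of reads of the 7 Sm mRNAs by tail length, with Snrpd3 and Snrpd1 to the right and Snrpf and Snrpb to the left.

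Within the group, tail length differed between members. Snrpd3, the partner of SmB, had the longest tails, with library means of 112 to 123 nt that exceeded the mean over all mRNA reads in 8 of 8 libraries, by 12.5 ± 4.66 nt (SD). Snrpd1 exceeded it in 7 of 8 libraries, by 9.09 ± 6.88 nt. Snrpf had the shortest tails and lay below that mean in 8 of 8 libraries, with a difference of -7.02 ± 2.68 nt.
An exact sign-flip permutation test over the 8 libraries, adjusted over 1949 genes with at least 10 reads in every library, gave adjusted p = 0.029 for Snrpd3 and Snrpf (the smallest p it can give is 0.0078 before adjustment) and 0.044 for Snrpd1. By the same test 18.7% of all genes lay higher and 16.4% lower, so 2 of 7 members higher and 1 of 7 lower is near the background. Each of the 3 calls was lost when any 1 library was left out, where the smallest exact permutation p is 0.016 before adjustment: the adjusted exact p was then 0.052 to 0.054 for Snrpd3 and Snrpf and 0.054 to 0.083 for Snrpd1. Snrpb (-5.03 ± 4.47 nt, adjusted exact p = 0.060), Snrpg (2.46 ± 2.05 nt, 0.060), Snrpe (-1.96 ± 4.05 nt, 0.31) and Snrpd2 (-1.55 ± 6.03 nt, 0.61) did not pass. The 6 neighbouring pairs in the order Snrpd3, Snrpd1, Snrpg, Snrpd2, Snrpe, Snrpb, Snrpf differed by 0.406 to 6.63 nt, and only Snrpd1 exceeded its neighbour, Snrpg, by more than the SD of the difference (6.63 ± 6.36 nt, 7 of 8 libraries).

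The first question of the design was whether MHY changed the amount of these mRNAs. After 48 h of MHY the reads of Snrpg, which encodes SmG of the SmE-SmF-SmG subcomplex, fell by 0.59 on the log2 scale, and this was the only change among the 7 members that passed the test. The levels were 96.4 in DMSO_24 and 84.3 in DMSO_25, against 58.4 in MHY_24 and 71.5 in MHY_25, all per 100000 mRNA reads. Both MHY libraries were below both DMSO libraries, as in 17.1% of 1949 genes, and 1 of 7 members did this. In bulk RNA a lower level in every cell and fewer cells with a high level cannot be told apart. The MHY mean was 0.719 times that of DMSO (90.4 ± 8.53 and 64.9 ± 9.23, SD, n = 2 each, exact permutation p = 0.33, the smallest that 2 against 2 can give). limma (voom weights, median-of-ratios scaling, 4116 genes) gave a standard error of 0.15 and an adjusted p of 0.016, where 1.58% of all genes tested passed.
At 24 h Snrpg showed no such difference: 83.7 and 84.1 in DMSO against 91.6 and 81.3 in MHY, a log2 difference of 0.04 ± 0.16 (SE), limma adjusted p = 0.997. The difference between the 48-h and the 24-h effect, -0.63 ± 0.22, did not pass (limma adjusted p = 0.35; 0.34% of genes passed). Within the 2 runs of the 48-h libraries the Snrpg level was 88.5 in DMSO and 72.2 in MHY in one, and 91.7 and 59.8 in the other.
The Snrpg call was lost when counts were scaled by total mRNA reads (log2 difference -0.47, limma adjusted p = 0.061), a scaling that moved the median of all genes at 48 h from -0.01 to 0.11 and the split of all calls from 17 higher and 48 lower to 40 higher and 26 lower. It was also lost without DMSO_24 (-0.51, adjusted p = 0.19), without DMSO_25 (-0.67, adjusted p = 0.11) and without MHY_24 (-0.37, adjusted p = 0.75), all by limma, but not without MHY_25 (-0.76, adjusted p = 0.00089).

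**Figure D3:**
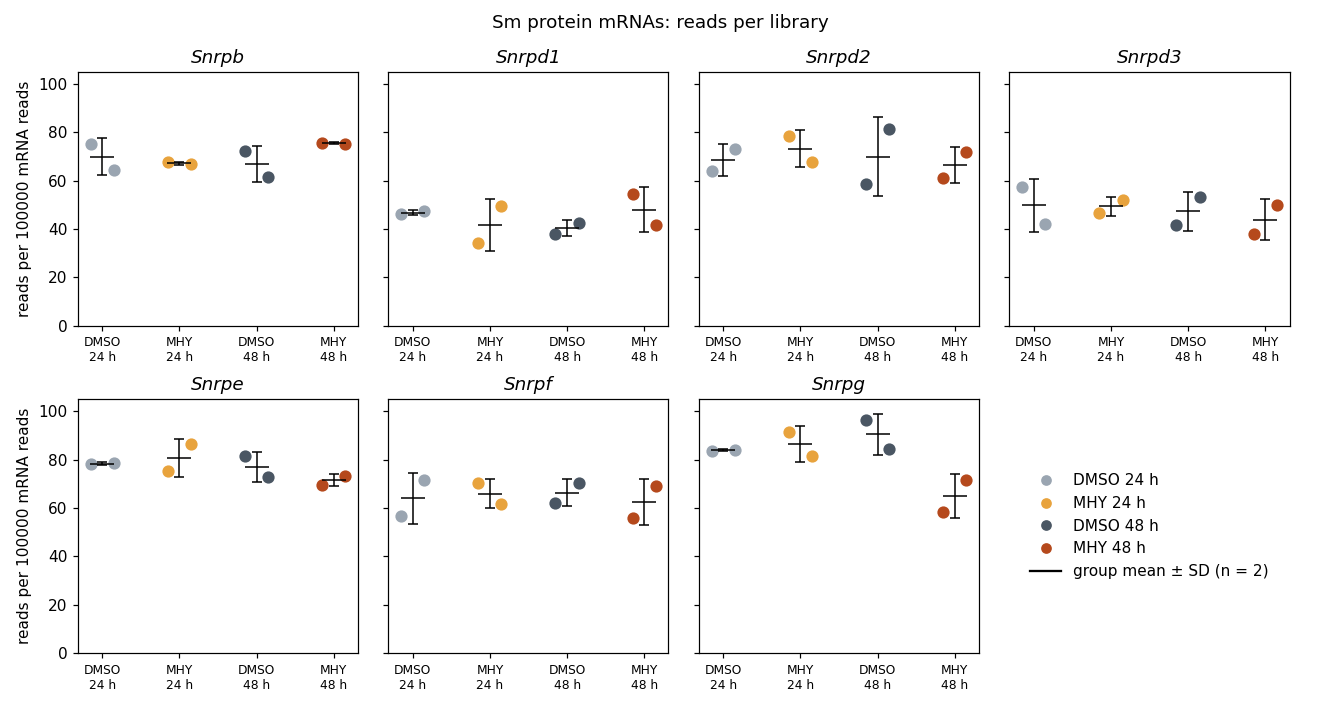
Reads per 100000 mRNA reads of the 7 Sm mRNAs in each of 8 libraries (points, coloured by group), with the mean and SD of the 2 libraries of a group (black). In the Snrpg panel both MHY 48 h libraries, at 58.4 and 71.5, lie below every other library.

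The partners of SmG in its subcomplex did not pass. Snrpe had 78.0 and 78.7 in DMSO and 75.1 and 86.3 in MHY at 24 h, and 81.4 and 72.7 in DMSO against 69.6 and 73.3 in MHY at 48 h (log2 difference at 48 h -0.21 ± 0.15, limma adjusted p = 0.62, and -0.11 without MHY_24). Snrpf had 56.5 and 71.4 in DMSO and 70.2 and 61.7 in MHY at 24 h, and 62.2 and 70.1 against 55.8 and 69.1 at 48 h (-0.21 ± 0.16, limma adjusted p = 0.63, and 0.01 without MHY_24, which turns its sign). The MHY and DMSO libraries of both genes overlapped at each time.
In the pair of SmB and SmD3, Snrpb had 75.4 and 64.5 in DMSO and 67.6 and 66.7 in MHY at 24 h, and 72.1 and 61.6 against 75.7 and 75.2 at 48 h (0.08 ± 0.16, limma adjusted p = 0.89). Snrpd3 had 57.6 and 42.1 in DMSO and 46.7 and 52.1 in MHY at 24 h, and 41.7 and 53.1 against 37.9 and 49.98 at 48 h (-0.25 ± 0.17, limma adjusted p = 0.59). Of these, the Snrpb groups at 48 h did not overlap, with MHY higher by 8.64 reads per 100000. Snrpb was the 1 member of 7 with both MHY libraries higher at 48 h, as 25.4% of genes were.
In the pair of SmD1 and SmD2, Snrpd1 had 46.1 and 47.5 in DMSO and 34.2 and 49.3 in MHY at 24 h, and 37.9 and 42.6 against 54.6 and 41.6 at 48 h (0.15 ± 0.17, limma adjusted p = 0.79). Snrpd2 had 63.9 and 73.2 in DMSO and 78.7 and 67.8 in MHY at 24 h, and 58.5 and 81.5 against 61.3 and 71.9 at 48 h (-0.19 ± 0.16, limma adjusted p = 0.68). In both genes the groups overlapped, and the lower and the higher DMSO library of Snrpd2 at 48 h enclosed both MHY libraries.
Summed over the 7 members the level was 461 and 461 in DMSO and 464 and 465 in MHY at 24 h, and 450.2 and 466 in DMSO against 413 and 453 in MHY at 48 h. At 48 h the fitted difference was below 0 in 5 of 7 members, while 49.2% of all 4116 genes were above 0. The median of the members was -0.21, where that of all genes was -0.01. The members' median was -0.04 without DMSO_25 and -0.0079 without MHY_24, so it rests on these libraries. Scaled by total mRNA reads it was -0.09, with all genes at 0.11. At 24 h the fitted difference was below 0 in 2 of 7 members, and above 0 in 50.8% of all genes. The members' median was 0.03 (-0.07 without MHY_23) against 0.01 over all genes. Of all genes 0.0729% passed, none of them a member. The groups of all 7 members overlapped at 24 h, where both MHY libraries were higher in 17.4% of genes and lower in 18.1%.

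The second question was whether MHY changed their tails. No member passed the test in mean tail length at either time. At 24 h 0.0% of 1949 genes passed in limma (81 had an unadjusted p under 0.05), and at 48 h 0.77% passed. The fitted difference at 48 h was below 0 in 6 of 7 members, with a median of -3.88 nt. Over all genes the median was -3.25 nt, with 36.0% of genes above 0. Without DMSO_25 the median of the members was -2.19 nt. At 48 h the 2 MHY libraries were both shorter than either DMSO library in 4 of 7 members (background 26.1%) and both longer in 1 of 7 (background 10.8%), and at 24 h in 1 of 7 each way (backgrounds 18.0% and 14.7%).

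**Figure D4:**
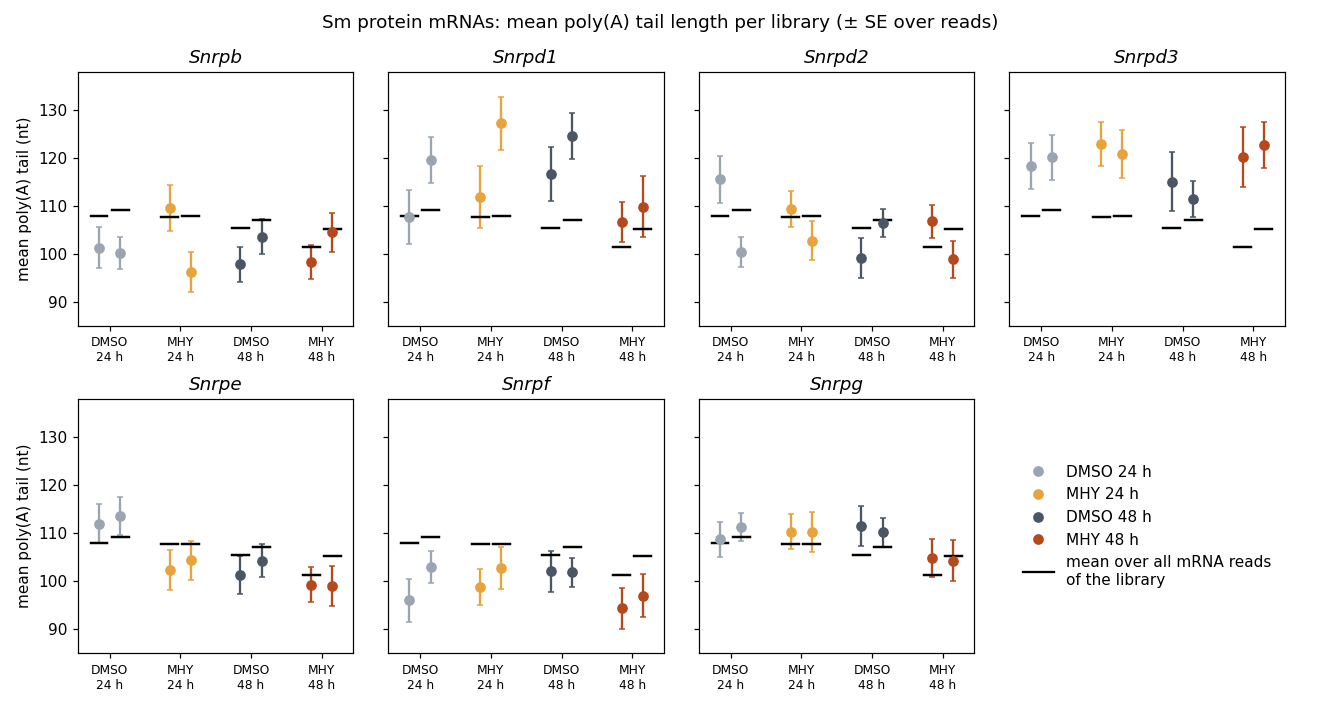
Mean poly(A) tail length in nt of the 7 Sm mRNAs in each library (points, coloured by group, ± SE over reads; the axis starts at 85 nt), with the mean over all mRNA reads of the same library (black). Snrpd3 lies above the black line in all 8 libraries and Snrpf below it.

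Snrpd1 had the widest difference at 48 h. Its mean tail was 117 nt in DMSO_24 and 125 nt in DMSO_25, against 107 nt in MHY_24 and 110 nt in MHY_25. The groups did not overlap, the fitted difference was -13.9 ± 5.55 nt (SE), and the limma adjusted p was 0.38. Without DMSO_25 the difference was -8.93 nt. At 24 h the means were 108 and 120 nt in DMSO and 112 and 127 nt in MHY, which overlapped, with a fitted difference of 5.23 ± 6.21 nt (limma adjusted p = 0.999). The change of the effect from 24 h to 48 h was -19.1 ± 8.33 nt (limma adjusted p = 0.95), and -10.9 nt without MHY_23.
Snrpd2, its partner, had means of 116 and 100.4 nt in DMSO and 109 and 103 nt in MHY at 24 h, and 99.2 and 106 nt against 107 and 98.9 nt at 48 h. Here the spread within each group was as wide as any difference between them.

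Snrpd3, with the longest tails, was the only member whose mean tail was higher in both MHY libraries than in both DMSO libraries at both times. Its median tails overlapped at 24 h, at 117.5 ± 4.17 nt in DMSO and 116.4 ± 1.68 nt in MHY (SD, n = 2). Its means were 118 and 120.2 nt in DMSO and 123 and 121 nt in MHY at 24 h, and 115 and 112 nt against 120.2 and 123 nt at 48 h. The fitted difference at 48 h was 8.62 ± 4.80 nt (limma adjusted p = 0.61). Within runs this direction was uneven, with MHY minus DMSO at -1.52, 9.90 and -0.15 nt in the 3 runs at 24 h and at 0.53 and 12.9 nt in the 2 runs at 48 h. Snrpb had 101 and 100.3 nt in DMSO and 109.6 and 96.2 nt in MHY at 24 h, and 97.8 and 104 nt against 98.3 and 104 nt at 48 h, which overlapped at both times.

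In the subcomplex of SmE, SmF and SmG the MHY means at 48 h were below the DMSO means in all 3 mRNAs. Snrpe had 112 and 114 nt in DMSO and 102 and 104 nt in MHY at 24 h, and 101 and 104 nt against 99.3 and 99.0 nt at 48 h. Its groups did not overlap at either time, the fitted difference was -9.64 ± 4.01 nt at 24 h (limma adjusted p = 0.999) and -3.88 ± 3.77 nt at 48 h (0.85), and within the 3 runs of the 24-h libraries it was -1.15, -19.4 and -9.77 nt.
Snrpf had 96.0 and 103 nt in DMSO and 98.9 and 103 nt in MHY at 24 h, and 102 and 102 nt against 94.3 and 97.0 nt at 48 h (-6.38 ± 4.15 nt, limma adjusted p = 0.70). Snrpg had 109 and 111 nt in DMSO and 110.3 and 110.3 nt in MHY at 24 h, and 112 and 110.2 nt against 104.9 and 104 nt at 48 h (-6.18 ± 3.73 nt, limma adjusted p = 0.67). Both were separated at 48 h and overlapped at 24 h. Within the 2 runs of the 48-h libraries MHY minus DMSO was -0.0025 and -6.43 nt for Snrpe, -0.13 and -11.1 nt for Snrpg, and -7.96 and -5.27 nt for Snrpf, so the difference was near 0 in 1 run for Snrpe and Snrpg.

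**Figure D5:**
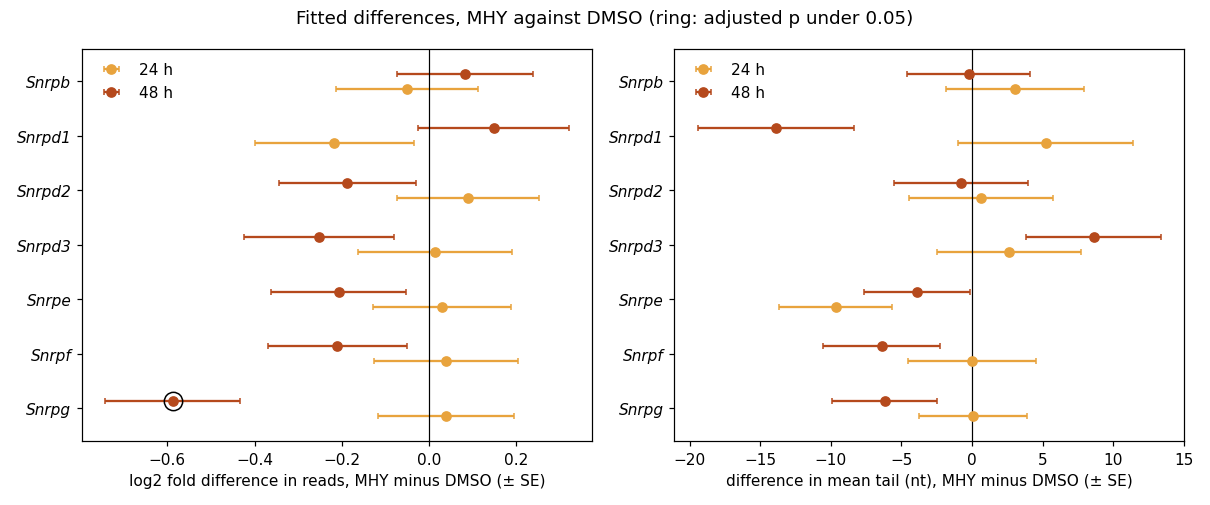
Differences between MHY and DMSO fitted by limma for the 7 Sm mRNAs at 24 h and 48 h (points ± SE), in reads on the log2 scale (left) and in mean tail length in nt (right). The ring marks Snrpg at 48 h, the only difference with an adjusted p under 0.05.

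Deadenylases shorten the tail step by step, and molecules with tails under 30 nt were rare in every member. Over the 8 libraries they made up 5.08% of Snrpb reads, 3.82% of Snrpe, 3.60% of Snrpf, 2.51% of Snrpg, 2.33% of Snrpd1, 1.77% of Snrpd3 and 1.19% of Snrpd2 reads. At 48 h the share among all mRNA reads was 2.72 ± 0.212% in DMSO and 3.92 ± 0.768% in MHY, and among pooled Sm reads 2.63 ± 0.550% and 4.08 ± 0.813% (SD, n = 2).
Snrpd1 had 0 of 81 such reads in DMSO_24, which allows a share of up to 3.70%, and 1 of 135 in DMSO_25, against 5 of 170 in MHY_24 and 4 of 89 in MHY_25. Snrpf had 2.26% (3 of 133) and 2.25% (5 of 222) in DMSO against 6.90% (12 of 174) and 4.05% (6 of 148) in MHY, with a 95% Wilson interval of 3.99 to 11.7% in MHY_24 that covers counting error only. Snrpb had 3.25% and 4.10% in DMSO against 6.78% and 6.21% in MHY.
Snrpe had 3.45% and 3.91% in DMSO against 6.45% and 5.10% in MHY. In each of these 4 mRNAs both MHY libraries were above both DMSO libraries at 48 h, where 26.1% of all genes did the same. Snrpd3 went the other way, with 5.62% and 1.79% in DMSO against 1.69% and 0 of 107 reads in MHY, which allows a share of up to 2.80%, and 7.03% of all genes went that way. The fitted difference in log2 odds was 2.13 ± 0.64 for Snrpd1 (limma adjusted p = 0.28), 1.23 ± 0.36 for Snrpf (0.27) and 0.81 ± 0.32 for Snrpb (0.44), so none passed. Of all genes 0.359% passed at 48 h and 0.0% at 24 h (110 with an unadjusted p under 0.05). At an unadjusted p under 0.05 there were 3 of 7 members and 207 of 1949 genes at 48 h. The median over the 7 members at 48 h was 0.81, beside 0.41 over all genes, and it was 1.78 with a bound of 20 nt in place of 30 nt.
At 24 h these mRNAs did not show one direction. Snrpb had 6.25% and 5.06% in DMSO against 4.61% and 3.36% in MHY, and Snrpd1 6.82% and 1.53% against 1.30% and 1.14%, both lower in MHY. Snrpf was higher, with 2.78% and 2.54% in DMSO against 3.80% and 4.55% in MHY, and Snrpe overlapped, with 0.671% and 3.69% against 3.55% and 2.60%. Both MHY libraries were higher in 2 of 7 members (7.8% of all genes) and lower in 3 of 7 (14.2%). The members' median log2 odds difference at 24 h was -0.44, or 0.15 without DMSO_23, beside -0.07 over all genes.

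Tails of 30 to 90 nt held 29.6% of Snrpd3 reads, 33.8% of Snrpd1, 36.9% of Snrpg, 39.4% of Snrpb, 39.9% of Snrpe, 41.4% of Snrpd2 and 43.5% of Snrpf reads. This share was lowest in the long-tailed members, Snrpd3 and Snrpd1, and highest in Snrpf. At 48 h it was 35.8% and 26.7% in DMSO and 39.4% and 44.9% in MHY for Snrpd1, a log2 odds difference of 0.71 ± 0.31 (limma adjusted p = 0.70), or 0.33 without DMSO_25. Snrpb went the other way, with 44.2% and 39.5% in DMSO against 38.6% and 34.8% in MHY. The fitted difference at 48 h was below 0 in 2 of 7 members, and above 0 in 55.3% of all genes. The members' median was 0.12 beside 0.05 over all genes. Leaving out 1 library moved the members' median to between 0.044 (without MHY_25) and 0.20 (without MHY_24). At 24 h the fitted difference was below 0 in 4 of 7 members, and above 0 in 54.4% of all genes. The median was then -0.09 in the members and 0.05 over all genes. With 1 library left out, the members' median at 24 h lay between -0.36 (without DMSO_23) and 0.07. No member passed in this class, as 0.257% of genes did at 48 h and 0.0% at 24 h (95 with an unadjusted p under 0.05).

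Among the members whose annotated transcript runs on well past the main site, Snrpd1 was the one with many molecules ending past it. Of its 831 reads on the main transcript, 196 (23.6%) ended more than 25 nt downstream. This share was at most 0.80% in Snrpd2, Snrpd3, Snrpf and Snrpg. The annotated transcripts of Snrpb and Snrpe end 9 and 5 nt past the main site, so none of their reads could end that far downstream. The downstream ends of Snrpd1 were gathered. Of the 10-nt bins past the main end, those from 40 and 50 nt held 45 and 28 reads. The bin from 110 nt held 21 reads, that from 180 nt 28 reads and that from 250 nt 30 reads. The annotated transcript ends 259 nt past the main end, so alignments of any longer molecule would also stop in this last bin. The 25-nt bound was set after the ends had been seen. The mean tail was 118 ± 2.2 nt (SE over 630 reads) at the main site and 108 ± 3.81 nt (196 reads) downstream. The downstream mean was the lower one in 6 of 8 libraries, but not in DMSO_21 (107 nt against 106 nt at the main site) and DMSO_23 (131 nt against 117 nt).
At 48 h the downstream share differed by less between treatments than between libraries. It was 22.2% and 24.0% in DMSO and 21.3% and 23.3% in MHY, and at 24 h 29.9% and 20.6% in DMSO and 30.1% and 21.2% in MHY. At 48 h the tails were shorter in MHY in both sets of molecules: 118 and 129 nt in DMSO against 112 and 114 nt in MHY for reads ending no farther than 25 nt downstream, and 113 and 113 nt against 90.5 and 93.7 nt for those ending farther (exact permutation p = 0.33 each, the smallest that 2 against 2 can give). The lower mean of Snrpd1 at 48 h was thus seen in each set of ends. The means of the reads ending farther rest on few reads, 18 and 31 in DMSO and 35 and 20 in MHY. At 24 h the MHY mean was 11.2 nt above the DMSO mean in the first set and lay -10.0 nt from it in the second (exact permutation p = 0.67 each).

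Other genes of the spliceosome gave no call by limma in reads or in any tail measure at 24 h or 48 h of MHY. For reads, 16 of 16 listed genes of U1 and U2 proteins with SmN were tested, 8 of 10 LSm genes, 17 of 18 genes of U5 and U4/U6 proteins, 13 of 16 genes of the SMN complex, methylosome and assembly factors, and 4 of 7 minor spliceosome genes. For tails, 15, 7, 8, 8 and 3 genes of these lists were tested, in the same order. At an unadjusted p under 0.05, reads at 48 h gave 1 LSm gene and 1 gene of the U5 and U4/U6 list, mean tails at 48 h gave 3 genes of the U1 and U2 list, shares of 30 to 90 nt at 48 h gave 2 genes of the U1 and U2 list and 1 minor spliceosome gene, and shares under 30 nt at 24 h gave 1 gene of the U5 and U4/U6 list. Over all genes these measures gave 511 of 4116 in reads, and 182, 120 and 110 of 1949 in the tail measures, in the same order. The 7 Sm genes gave 1 in each of these 4 measures. In shares under 30 nt at 48 h they gave 3, and the other lists 0 each, beside 207 of 1949 genes. In mean tails and in shares of 30 to 90 nt at 24 h they gave 1 each, and the other lists 0, beside 81 and 95 of 1949 genes.
Snrpn, which encodes SmN, the paralog of SmB made mainly in brain, had more reads than any Sm gene (2671). Its level at 48 h was 127 and 132 reads per 100000 in DMSO against 153 and 127 in MHY, which overlapped. Only 67.6% of its reads had a mapping quality of at least 10, against 97.5% for Snrpb and 71.5% over all mRNA reads. Its mean tail was 99.95 and 104.7 nt in DMSO against 108 and 114 nt in MHY at 48 h.
The most-read genes of the other lists were set against the mean tail over all mRNA reads by the same exact permutation test over 8 libraries. Lsm3 and Lsm4, of the LSm ring that binds U6 RNA, lay -11.3 and -9.00 nt from it (adjusted exact p = 0.029 and 0.044). Strap and Clns1a, both of Sm protein assembly, lay -9.81 nt (adjusted exact p = 0.044) and -3.09 nt (0.30) from it.
Snrpc, the U1 C protein, lay -5.69 nt (adjusted exact p = 0.12), Snu13 of the U4/U6 particle -0.69 nt (0.65) and Txnl4a of U5 -6.58 nt (0.098) from it. In the minor spliceosome Snrnp25 lay -10.8 nt (adjusted exact p = 0.060) and Zcrb1 15.3 nt (0.029) from it.
Of the other tested genes of these lists, 6 passed this test, and these calls, like those of Lsm3, Lsm4, Strap and Zcrb1, were lost when any 1 library was left out. Lsm2 of the LSm ring lay 27.3 nt from the mean (adjusted exact p = 0.044), and Prpf8, the core protein of U5, 14.6 nt (0.044). Of the U1 and U2 proteins, Snrpa lay 9.93 nt (adjusted exact p = 0.029), Snrpa1 -9.62 nt (0.029), Sf3b1 20.7 nt (0.044) and Sf3b3 22.9 nt (0.029) from it. By list, 1 gene was higher and 2 lower of 7 LSm genes, 3 and 1 of 15 U1 and U2 genes, 1 and 0 of 8 U5 and U4/U6 genes, 0 and 1 of 8 assembly genes, and 1 and 0 of 3 minor spliceosome genes, against 365 and 320 of 1949 genes.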

How the data were processed

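RNA of 8 P19 libraries was sequenced on nanopores. Base calling (Guppy), alignment to GENCODE vM17 on mm10 (minimap2 2.20, map-ont preset), tail estimation (Nanopolish) and demultiplexing of barcodes (Deeplexicon) had been done by the authors. The deposited table has 1 line per alignment: tail length in nt, a barcode confidence as a fraction and a mapping quality score. Library names in it gave the treatment and a number, and its condition column the time.

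Lines with the PASS tag and mRNA class were kept, without mitochondrial and pseudogene lines, once per read and transcript (1926118 of 2439710 lines). Mean tails and log2 odds of tail classes (pseudocount 0.5; genes with at least 10 reads in each library) were fitted with limma 3.58.1 (R 4.3.3), weighted by reads. Read counts (at least 10 in 2 libraries) were fitted with limma voom. All 8 libraries entered each fit, with Benjamini-Hochberg adjustment over all genes. Single genes had exact permutation tests (two-sided; scipy 1.17.1). The methods were tested on simulated data. The labels do not say whether libraries came from separate cultures, but the methods call them biological replicates.

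The members and lists were chosen with earlier results of these data known. Named were the 7 members, Snrpn, the 2 genes of each further list with most reads, genes past adjusted p 0.05 in a contrast, and the 5 genes of nearest tail distribution. List genes past it in tail level were added after their values were seen. Depth limits precision: 77 to 267 reads per member and library gave a standard error of 2.88 to 6.46 nt on a mean tail. Intervals cover counting error only. Alternatives tried: mapping quality and confidence minimums, 1 line per read and gene, read minimums, medians, other class bounds, no weights, total-read scaling, separate time points, a replicate block, and each library left out.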

Additional observations from a re-analysis of the deposited data

How the results depend on the processing

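Numbers of called genes moved as follows, beside 0 and 15 genes in mean tail (MHY at 24 h and 48 h), 7 in tails under 30 nt, 5 in tails of 30 to 90 nt, 3 and 65 in reads (24 h and 48 h), 14 in the difference of the read effects, and 685 in tail level. A barcode confidence of at least 0.9 gave 32 genes in mean tail at 48 h, 2 under 30 nt, 2 in its difference between times, 1 and 3 for 30 to 90 nt at 24 h and 48 h, 39 in reads at 48 h and 7 in their difference. A mapping quality of at least 10 gave 12 genes under 30 nt, 4 in its difference, 1 for 30 to 90 nt at 48 h, 1 in reads at 24 h, 6 in the read difference and 1 in reads between the DMSO groups. No read minimum gave 1 in mean tail, 0 under 30 nt and 1 for 30 to 90 nt at 48 h, and 147, 29 and 8 in reads at 48 h, in their difference and between the DMSO groups. At least 30 reads gave 2 in the difference under 30 nt and 410 in level, and medians gave 453 in level. No weights gave 0 in each tail measure at 48 h. Bounds of 20 nt and of 40 to 80 nt gave 0 and 3 at 48 h and 1 and 1 between the DMSO groups. The 4 libraries of a time alone gave 1 and 1 in mean tail, 1 under 30 nt at 48 h, 4 and 1 for 30 to 90 nt, and 5 and 30 in reads.

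Same-numbered libraries did not deviate together (r between -0.05 and 0.07 over 529 genes), so the numbers were not taken as a pairing. With the number as a replicate block, mean tails gave 1 gene at 24 h and 1 between the DMSO groups, tails under 30 nt 17 at 48 h, 6 in the difference and 1 between the DMSO groups, and tails of 30 to 90 nt 4, 8 and 8 at 24 h, at 48 h and between the DMSO groups. With the block the Snrpg call remained (limma adjusted p = 0.0074).

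Leaving out each library in turn gave 0 to 1 and 0 to 53 genes in mean tail at 24 h and 48 h. Tails under 30 nt gave 0 to 1, 0 to 10, 0 to 3 and 0 to 1 (24 h, 48 h, difference, DMSO groups), tails of 30 to 90 nt 0 to 4, 0 to 36 and 0 to 4 (24 h, 48 h, DMSO groups), and reads 0 to 4, 16 to 140, 0 to 37 and 0 to 2. The level count was then 0 throughout, where 7 libraries cannot give an exact p below 0.016 before adjustment, and the adjusted exact p of Snrpd3 and Snrpf was 0.052 to 0.054.

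Among the members, the Snrpg call at 48 h was also lost with a barcode confidence of at least 0.9 (-0.54, limma adjusted p = 0.11) and with the 4 libraries alone (-0.58, 0.063), and without MHY_25 its difference between times passed (-0.80, limma adjusted p = 0.042), while without MHY_24 that difference was -0.41. The signs of small differences turned. Read differences at 24 h became -0.0042 (no read minimum) and -0.0063 (block) for Snrpd3, -0.0028 (no read minimum) for Snrpe and -0.0496 (confidence) for Snrpf. Tail differences at 48 h became 0.62, 0.48, 0.68, 2.24 and 0.69 nt for Snrpb (mapping quality, confidence, block, median, no weights) and 0.31, 0.12 and 0.039 nt for Snrpd2 (confidence, median, no weights), and the Snrpd2 level became 1.14 nt with medians. Without 1 library the read difference at 48 h ranged from -0.0153 to 0.177 (Snrpb), -0.00788 to 0.280 (Snrpd1), -0.419 to 0.0916 (Snrpd2), -0.477 to 0.0252 (Snrpd3), -0.283 to -0.108 (Snrpe) and -0.397 to 0.0115 (Snrpf). At 24 h it ranged from -0.187 to 0.0673 (Snrpb), -0.486 to 0.104 (Snrpd1), 0.00985 to 0.177 (Snrpd2), -0.249 to 0.233 (Snrpd3), -0.0968 to 0.168 (Snrpe), -0.103 to 0.202 (Snrpf) and -0.0180 to 0.0890 (Snrpg). Tails ranged from -2.97 to 12.4 nt (Snrpd1, 24 h), -2.81 to 3.43 nt (Snrpb, 48 h), -5.16 to -2.19 nt (Snrpe, 48 h) and -5.20 to 4.08 nt (Snrpd2, 48 h), and the Snrpd2 level from -2.86 to -0.526 nt. The cause was not tested.

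Of the tail levels, those of Snrpg and Snrpb passed with at least 30 reads (adjusted exact permutation p = 0.043 each), that of Snrpg also with the mapping quality and the confidence minimum (2.80 and 3.86 nt, adjusted exact permutation p = 0.047 and 0.045) and that of Snrpb with 1 line per read and gene (-5.19 nt, 0.044), and that of Snrpd1 missed with medians (10.7 nt, adjusted exact permutation p = 0.068).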
